A study of Mus musculus with 6 samples.

Results

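A set of 10 immediate-early genes outside the AP-1 family was followed in the islet RNA of db/db and db/m mice. They are Egr1, Egr2 and Egr3 (zinc-finger transcription factors), Nr4a1, Nr4a2 and Nr4a3 (orphan nuclear receptors), Klf4 and Klf6 (Krüppel-like factors), and Ier2 and Ier3 (immediate early response genes). All 10 were found by symbol among the 44713 genes of the count table. The list was drawn up with the difference between db/db and db/m islets known, so the levels and fold changes of the 10 genes are given as a description and not as a test.

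Total RNA of islets was depleted of rRNA and sequenced for 3 db/db mice, labelled Lepr-/-, and 3 db/m mice, labelled wild type. The db/db mouse carries a leptin receptor mutation on both chromosome copies and becomes obese and diabetic. The db/m littermate, which carries the mutation on a single copy, is its usual lean control. The labels name the strain C57BL/6, whereas the methods of the study name BKS mice, all male, on a normal diet and 10 weeks old at islet isolation. In both groups the islets were freed by collagenase digestion, purified on a density gradient and used for RNA extraction without culture. By the study's methods each library stands for 1 mouse, so the spread below is that between mice.

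Immediate-early genes are transcribed within minutes of a stimulus without new protein synthesis, and their transcripts are short-lived. In β cells, Ca2+ entry and cAMP after a rise in glucose are well-known stimuli, and they act through kinases on transcription factors such as CREB and SRF that already sit at the promoters. Egr and Nr4a proteins then bind DNA and drive later genes, and Egr1 in particular is known as a glucose-responsive factor of β cells. The same genes also respond to mechanical and digestive handling of tissue.

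Library totals lay between 15641797 and 20614531 counts. Counts were scaled by TMM factors between 0.6047 (db/db replicate 1) and 1.75 (db/m replicate 1) and are given as CPM, the count per 1e6 counts of the scaled library. The floor of 3 counts corresponded to 0.11 to 0.241 CPM. Acinar transcripts made up a large part of every library. The 12 acinar markers, among them the chymotrypsinogen gene Ctrb1 and the elastase gene Cela1, were all detected and together held 50.8% to 54.8% of the counts in db/db and 40.0% to 50.4% in db/m libraries. The 10 β-cell markers, Ins1 and Ins2 among them, held 0.15% to 0.641% in db/db and 0.772% to 4.39% in db/m libraries (two-sided exact permutation tests of both shares, p = 0.1, the smallest p that 3 against 3 allow). The highest β-cell share was that of db/m replicate 1, while the β-cell transcription factor gene Mafa, named after its values were seen, had 0, 19 and 2 counts in the db/db libraries and 1388, 166 and 210 in the db/m libraries. In such mixed RNA, fewer cells of a type and less RNA per cell cannot be told apart.

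All 10 genes had a lower fitted level in db/db than in db/m islets, with log2 fold changes from -3.89 for Egr1 to -0.23 for Ier3 and a median of -2.28, against a median of 0.00 over the 12760 genes tested. Their summed counts were 830, 1010 and 1326 in the db/db libraries and 8981, 11074 and 7581 in the db/m libraries. For 7 of the 10 genes every db/db library lay below every db/m library, whereas 12.6% of all tested genes were arranged in this way. These were Egr1, Egr2, Nr4a1, Nr4a2, Klf4, Klf6 and Ier2. In edgeR's quasi-likelihood test with adjustment over all tested genes, 4 of the 10 genes (Egr1, Klf4, Klf6 and Ier2) were called lower, beside 0.486% of all tested genes called lower and 0.619% called in either direction. Because the contrast chose the genes, nothing is read from these counts. No gene of the 10 was called higher. The 4 calls depended on single libraries, and the number called was 1, 0 and 1 without db/db replicate 1, 2 or 3, and 2 without db/m replicate 2. All 10 passed the filter on low counts, but Egr2, Egr3 and Nr4a3 reached 10 counts in only 1 db/db library each and Ier3 in 2.

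**Figure D1:**
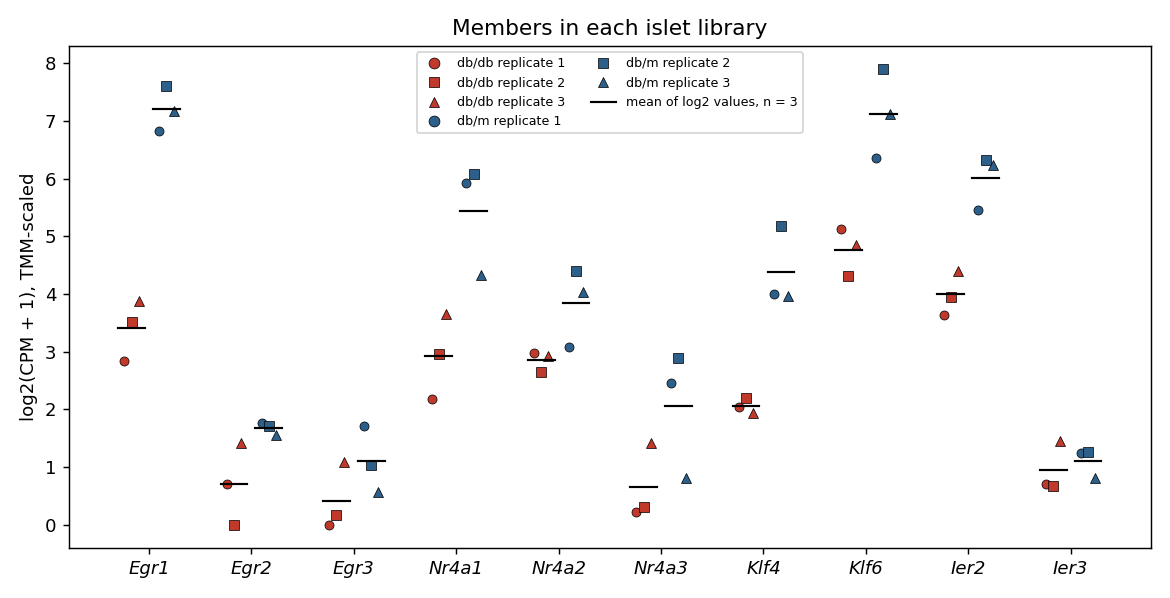
Level of each gene, as log2(CPM + 1), in the 3 db/db (red) and 3 db/m (blue) libraries, with marker shapes for replicates 1 to 3 and a bar at the mean. Egr1 shows the widest gap, and the groups overlap for Egr3, Nr4a3 and Ier3.

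Among the Egr genes, Egr1 carried almost all of the signal. Egr1, which encodes a zinc-finger activator (chromosome 18, bases 34859823 to 34864984, forward strand, in GRCm38 as for all positions here), had 77, 175 and 204 counts in db/db and 3081, 3330 and 2656 in db/m libraries. On the CPM scale it had 6.18, 10.5 and 13.7 in db/db and 113, 194 and 144 in db/m libraries. Every db/m library was above every db/db library, and the lowest db/m value was 8.24 times the highest db/db value. The means were 10.1 ± 3.78 CPM (SD, n = 3) and 150 ± 40.8 CPM (SD, n = 3), a 14.8-fold higher mean in db/m (log2 fold change -3.89, standard error 0.37). This was the largest difference of the 10 genes.

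Egr2, known for its part in myelination and in hindbrain patterning, occupies bases 67535475 to 67542188 of chromosome 10 (forward strand). It had 8, 0 and 25 counts in db/db and 65, 39 and 36 in db/m libraries. The db/m libraries were close to each other at 2.20 ± 0.226 CPM (SD, n = 3), while the db/db libraries ranged from 0 to 1.68 CPM, and the absence of counts in db/db replicate 2 allows up to 0.179 CPM. The groups did not overlap, but the lowest db/m value was only 1.16 times the highest db/db value. Egr3, a relative with roles in lymphocytes and muscle spindles, occupies bases 70077203 to 70082614 of chromosome 14 (forward strand). It had 0, 2 and 17 counts in db/db and 62, 18 and 9 in db/m libraries. Here the groups overlapped, since db/db replicate 3 (1.14 CPM) lay above db/m replicates 2 and 3 (1.05 and 0.487 CPM). The log2 fold changes were -1.51 (standard error 0.92) for Egr2 and -1.58 (standard error 1.07) for Egr3. The fourth family member, Egr4, had 0 counts in each db/db library and 2, 2 and 0 in the db/m libraries, all at or under the floor.

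Per kilobase of exon, Egr1 made up 80.2% to 98.9% of the Egr signal in db/db libraries and 95.4% to 97.9% in db/m libraries. It was thus the leading Egr transcript in all 6 libraries, and the groups overlapped in this share. Egr1 also made up a larger part of the summed CPM of the 10 genes in db/m, with 34.3%, 30.1% and 35.0%, than in db/db, with 9.28%, 17.3% and 15.4%.

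The Nr4a genes encode nuclear receptors without a known hormone ligand whose activity is set mainly by how much is made. Nr4a1 occupies bases 101254269 to 101274795 of chromosome 15 (forward strand) and had 44, 113 and 172 counts in db/db and 1620, 1142 and 355 in db/m libraries. On the CPM scale it had 3.53, 6.76 and 11.6 in db/db and 59.5, 66.5 and 19.2 in db/m libraries. The groups did not overlap, although db/m replicate 3 lay well below the other db/m libraries and only 1.66 times above the highest db/db library. The log2 fold change of Nr4a1 was -2.73 (standard error 0.54).

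Nr4a2, which is required for midbrain dopamine neurons, occupies bases 57106830 to 57124003 of chromosome 2 (reverse strand). It had 86, 88 and 98 counts in db/db and 205, 346 and 284 in db/m libraries. The db/db libraries were tight at 6.25 ± 0.872 CPM (SD, n = 3), and db/m replicate 1 (7.52 CPM) came within 1.09 times of the highest of them, so that the separation of the groups was narrow. Its log2 fold change of -1.20 (standard error 0.36) was the smallest of the Nr4a family. Nr4a3, at bases 48045153 to 48086447 of chromosome 4 (forward strand), had 2, 4 and 25 counts in db/db and 123, 111 and 14 in db/m libraries. Its groups overlapped, because db/m replicate 3 (0.758 CPM) was below db/db replicate 3 (1.68 CPM). The log2 fold change was -2.47 with a standard error of 0.95.

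Per kilobase of exon, Nr4a1 was the most abundant Nr4a transcript in all libraries apart from db/db replicate 1, where Nr4a2 held 62.2% of the family's signal. The share of Nr4a2 was 62.2%, 39.7% and 31.2% in db/db and 9.48%, 19.9% and 40.3% in db/m libraries, so the groups overlapped. Nr4a3 held at most 5.4% in any library.

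**Figure D2:**
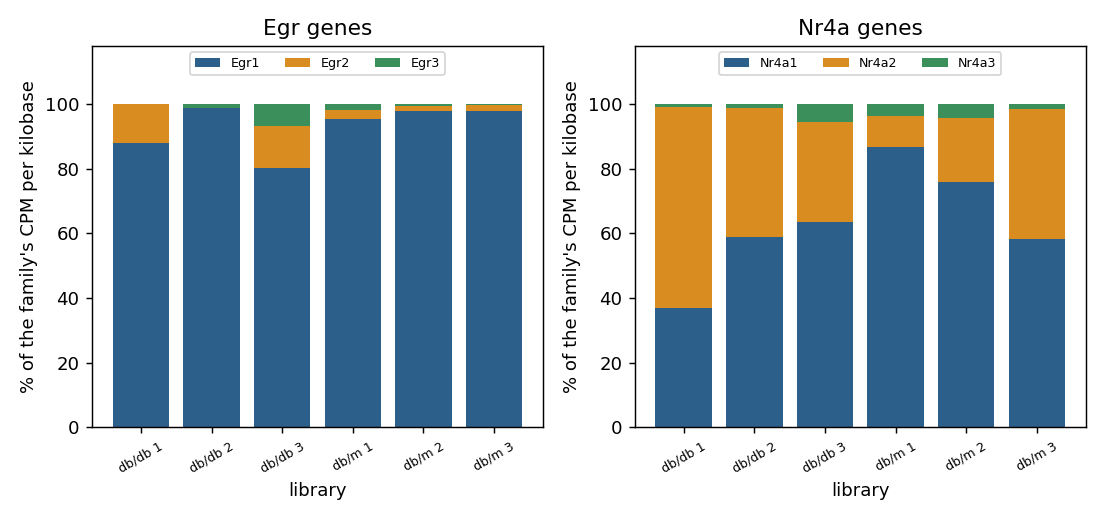
Share of each Egr gene (left) and each Nr4a gene (right) in the summed CPM per kilobase of its family, in percent, for each of the 6 libraries. Egr1 takes at least 80.2% of its family everywhere, while the balance of Nr4a1 and Nr4a2 varies from library to library within both groups.

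Promoter sequence was not used in choosing the genes. RefSeq windows (GRCm38.p6, from 250 bases before to 50 after a start site) were held for 7 of the 10 genes, Egr2, the 3 Nr4a genes, Klf4, Klf6 and Ier3, and for 8975 of the tested genes. No window was held for Egr1, Egr3 or Ier2, so the motif counts do not cover them. The CREB-binding core TGACG, searched on both strands, was present in 5 of the 7 genes (Egr2, Nr4a1, Nr4a2, Nr4a3 and Klf4), against 36.1% of the tested genes with a window. Each Nr4a gene held 4 copies in its window, and at least 4 copies were found in 0.646% of the tested genes, a limit that was chosen after these copies were seen. The complete CRE, TGACGTCA, which contains this core, was in none of the 7 genes and in 3.74% of the tested genes. The CArG box, the binding element of SRF, was in Egr2 and in 1.54% of the tested genes. Egr2 had several start sites and so several windows, which were all searched. The Egr-type motif GCGNGGGCG was in Nr4a1, Nr4a2 and Klf4, against 12.6% of the tested genes. The GC box GGGCGG was in all 7 genes, against 69.7% of the tested genes, and can overlap the Egr-type motif. The Nr4a monomer motif AAAGGTCA (1.15% of the tested genes) and the AP-1 motif TGANTCA (5.94%) were in none of the 7 genes. A match describes letters and does not show a bound site.

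To show the elements in place, the 250 bases before a start site are given for Nr4a1 (chr15:101266596-101266845, forward strand). The same is given for a start site of Egr2 whose window holds a CArG box (chr10:67537316-67537565, forward strand). Each of these start sites lies inside the gene span given above, downstream of the first base of the gene. For Nr4a2 (chr2:57124104-57124133, reverse strand) and Nr4a3 (chr4:48045083-48045112, forward strand) 30 bases around the closest pair of CREB cores are given. Capitals mark TGACG or its reverse complement CGTCA in the Nr4a genes and the CArG box in Egr2.
Nr4a1: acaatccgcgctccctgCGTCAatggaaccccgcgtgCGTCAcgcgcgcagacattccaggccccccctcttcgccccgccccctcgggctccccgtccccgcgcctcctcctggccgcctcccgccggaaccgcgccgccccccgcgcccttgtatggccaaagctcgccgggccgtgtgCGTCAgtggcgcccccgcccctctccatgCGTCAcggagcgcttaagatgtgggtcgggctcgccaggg
Nr4a2: gccgggcTGACGgggccgcTGACGcgcttg
Nr4a3: gtcccatgtCGTCAcatTGACGtctcgcat
Egr2: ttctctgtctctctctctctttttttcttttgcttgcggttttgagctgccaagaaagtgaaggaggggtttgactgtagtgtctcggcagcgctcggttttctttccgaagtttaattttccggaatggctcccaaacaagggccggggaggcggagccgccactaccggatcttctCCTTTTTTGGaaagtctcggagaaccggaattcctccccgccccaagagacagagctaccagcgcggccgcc
In Nr4a1 the cores lay at -233, -213, -69 and -40 from the start site (first base of each). The CArG box in the Egr2 stretch shown began at -72. Windows of other Egr2 start sites held a different CArG box further downstream, at -72, -73 and -133 from their own start sites.

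Krüppel-like factors bind GC-rich and CACCC elements, and Klf4 is best known as a reprogramming and differentiation factor. Klf4 occupies bases 55527143 to 55532466 of chromosome 4 (reverse strand) and had 39, 60 and 42 counts in db/db and 408, 603 and 269 in db/m libraries. On the CPM scale it had 3.13, 3.59 and 2.82 in db/db and 15.0, 35.1 and 14.6 in db/m libraries. The lowest db/m library was 4.06 times the highest db/db library, the second widest gap after Egr1. The log2 fold change was -2.75 (standard error 0.39).

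Klf6, a widely expressed injury-responsive relative, occupies bases 5861482 to 5870394 of chromosome 13 (forward strand). It had 423, 317 and 416 counts in db/db and 2203, 4099 and 2570 in db/m libraries. Its mean was 27.0 ± 7.55 CPM (SD, n = 3) in db/db and 153 ± 79.8 CPM (SD, n = 3) in db/m, and the groups did not overlap (log2 fold change -2.50, standard error 0.42). The share of Klf4 in the summed CPM per kilobase of Klf4 and Klf6 was 11.7%, 21.4% and 12.7% in db/db and 21.1%, 17.5% and 13.1% in db/m libraries, so it varied within both groups and the groups overlapped.

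Ier2, a short nuclear protein gene, occupies bases 84661331 to 84662852 of chromosome 8 (reverse strand). It had 143, 241 and 301 counts in db/db and 1177, 1362 and 1374 in db/m libraries. The means were 15.4 ± 4.46 CPM (SD, n = 3) and 65.6 ± 19.6 CPM (SD, n = 3) without overlap between the groups, a log2 fold change of -2.09 (standard error 0.32). Among the 10 genes, Ier3 had the log2 fold change nearest to 0. It is an NF-κB-responsive survival gene at bases 35821684 to 35822923 of chromosome 17 (forward strand). It had 8, 10 and 26 counts in db/db and 37, 24 and 14 in db/m libraries. Its means of 0.996 ± 0.652 CPM (SD, n = 3) and 1.17 ± 0.358 CPM (SD, n = 3) differed by less than their spread, and its log2 fold change of -0.23 (standard error 0.59) was near 0. Per kilobase, Ier3 therefore held a larger part of the summed Ier2 and Ier3 signal in db/db (7.0%, 5.29% and 10.4%) than in db/m libraries (4.06%, 2.32% and 1.35%), without overlap. No other gene of the GENCODE M21 annotation overlapped any of the 10 genes on either strand. The annotation used for the counts is not given and may differ from it.

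Levels can be compared between genes only per length. In db/m islets the order of mean CPM per kilobase of exon was Ier2 (43.1), Klf6 (34.8), Egr1 (33.5), Nr4a1 (13.8), Klf4 (7.07), Nr4a2 (3.54), Ier3 (1.04), Nr4a3 (0.653), Egr2 (0.648) and Egr3 (0.288). The first 3 overlapped between neighbours, as did Nr4a1 with Klf4, Klf4 with Nr4a2, Ier3 with Nr4a3 and Nr4a3 with Egr2. Gaps without overlap lay between Egr1 and Nr4a1, between Nr4a2 and Ier3 and between Egr2 and Egr3. In db/db islets Ier2 (10.1) and Klf6 (6.14) again led, and Egr1 (2.26) lay beside Nr4a1 (2.08) and Nr4a2 (1.54). There Klf6 lay above Egr1 without overlap, whereas neighbouring values of Egr1, Nr4a1 and Nr4a2 overlapped. Egr1 therefore stood level with Klf6 in db/m islets and below it in db/db islets.

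The 10 genes did not vary in step within a group. On the log2(CPM + 1) scale, db/m replicate 2 was the highest db/m library for 8 genes, and Egr2 and Egr3 were the exceptions. Klf6 (0.77 above the group mean), Klf4 (0.80) and Nr4a3 (0.84) lay highest in that library. In db/m replicate 3, the deviation from the group mean was -1.11 for Nr4a1 and -1.25 for Nr4a3, but 0.19 for Nr4a2 and 0.00 for Klf6. Nr4a1 and Nr4a3 thus moved together among the db/m libraries, apart from Nr4a2. In db/m replicate 1, Klf6 (-0.78), Nr4a2 (-0.75) and Ier2 (-0.54) were low and Egr3 (0.61) and Nr4a1 (0.47) high. Among the db/db libraries, replicate 3 was the highest for 7 genes, and Nr4a2, Klf4 and Klf6 were the exceptions. The SD on this scale was 0.13 for Klf4 and 0.18 for Nr4a2 in db/db islets, against 0.29 for the median tested gene. In db/m islets it was 1.10 for Nr4a3 and 0.96 for Nr4a1, against 0.32 for the median tested gene.

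**Figure D3:**
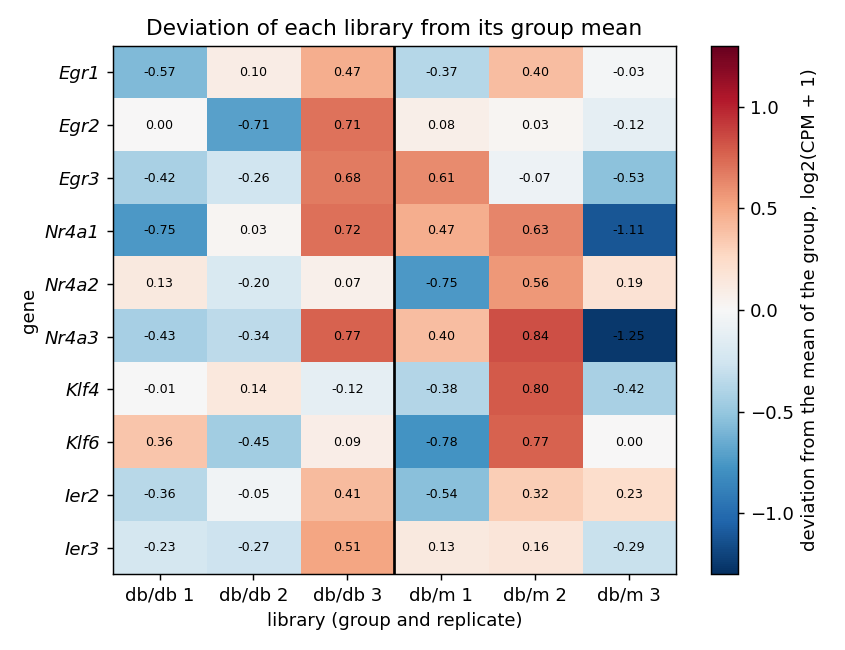
Deviation of each library from the mean of its group on the log2(CPM + 1) scale, for each gene; red is above and blue below the group mean. Nr4a1 and Nr4a3 are the lowest values in db/m replicate 3, and db/db replicate 3 is above its group mean for 9 genes.

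The genes whose profile over the 6 libraries came closest to the mean profile of the 10 genes were chosen by the smallest root mean square difference of centred log2(CPM + 1) values. They were LOC102640593 (0.22), Ppp1r15a (0.26), Ccrn4l (0.26), Dgkh (0.27) and Junb (0.27). Ppp1r15a, a phosphatase subunit of the stress response, had 12.0 ± 4.90 CPM (SD, n = 3) in db/db and 38.2 ± 6.45 CPM (SD, n = 3) in db/m islets. The AP-1 subunit gene Junb had 6.86 ± 2.48 CPM (SD, n = 3) in db/db and 34.7 ± 12.8 CPM (SD, n = 3) in db/m islets. These genes were picked for likeness to a profile that holds the group difference, so their fold changes add no evidence on it.

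The relatives, partners and upstream regulators of the 10 genes were listed by function. Of the 50 listed genes 42 were tested, with a median log2 fold change of -0.08 and a range from -2.43 to 1.26. By edgeR's quasi-likelihood test with adjustment over all tested genes 0 of them were called, which does not show that none changed. In the same test 11 had an unadjusted p under 0.05 (9 lower and 2 higher), and DESeq2 called 4 lower (Klf2, Klf12, Ier5 and Srf). Of all 12760 tested genes, 9.89% were lower and 5.04% higher at an unadjusted p under 0.05, and DESeq2 called 4.1% lower. The count called by edgeR was 2 without db/m replicate 3. The groups did not overlap for 9 genes that were lower and 3 that were higher in db/db islets, against 12.6% and 8.53% of all tested genes.

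Of the 12 other Klf genes tested, 7 had a log2 fold change below 0 and their median was -0.05. Klf15, a metabolic regulator and the most abundant of them, had 100 ± 15.6 CPM (SD, n = 3) in db/db and 78.4 ± 42.1 CPM (SD, n = 3) in db/m islets (log2 fold change 0.36, standard error 0.38, adjusted p = 0.691 from edgeR). For Klf13 the log2 fold change was -0.38 ± 0.36 (standard error) and edgeR's adjusted p = 0.65. Klf9, a glucocorticoid-responsive gene named here after its values were seen, had 24.8 ± 4.05 CPM (SD, n = 3) and 25.0 ± 5.28 CPM (SD, n = 3). Klf2, the flow-responsive factor of endothelium and quiescent lymphocytes, was also singled out after its values were seen. It had 51, 47 and 149 counts in db/db and 676, 761 and 408 in db/m libraries, without overlap (log2 fold change -2.43, standard error 0.48, adjusted p = 0.0654 from edgeR). Ier5, the related immediate early response gene, had 17, 40 and 45 counts in db/db and 320, 96 and 78 in db/m libraries (log2 fold change -1.66, standard error 0.46, adjusted p = 0.137 from edgeR).

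No partner of the encoded proteins passed the test. The log2 fold change of the Egr corepressor gene Nab1 was 0.38 ± 0.36 (standard error), with an adjusted p = 0.646 in edgeR. The other corepressor gene, Nab2, itself an Egr target, had -0.90 (standard error 0.76, adjusted p = 0.609 from edgeR). Rxra and Rxrb, which encode partners of Nr4a1 and Nr4a2 in receptor dimers, had 0.34 (standard error 0.54) and 0.78 (standard error 0.28), with adjusted p of 0.805 and 0.232 from edgeR.

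Of the tested upstream regulators (6 for SRF, 8 for CREB and 11 kinases), Srf had the lowest log2 fold change. Srf encodes the factor that binds the CArG box, and it had 129, 223 and 190 counts in db/db and 654, 892 and 389 in db/m libraries (log2 fold change -1.41, standard error 0.36, adjusted p = 0.113 from edgeR). The groups did not overlap for Srf. For its cofactor gene Elk4 the log2 fold change was 0.07 (standard error 0.22). The CREB coactivator genes Crebbp and Ep300 had 0.02 (standard error 0.27) and -0.33 (standard error 0.25). For the kinase gene Prkacb (a catalytic subunit of protein kinase A) the value was -0.95 (standard error 0.29), and the adjusted p of these 4 genes lay between 0.164 and 0.986 in edgeR.

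**Figure D4:**
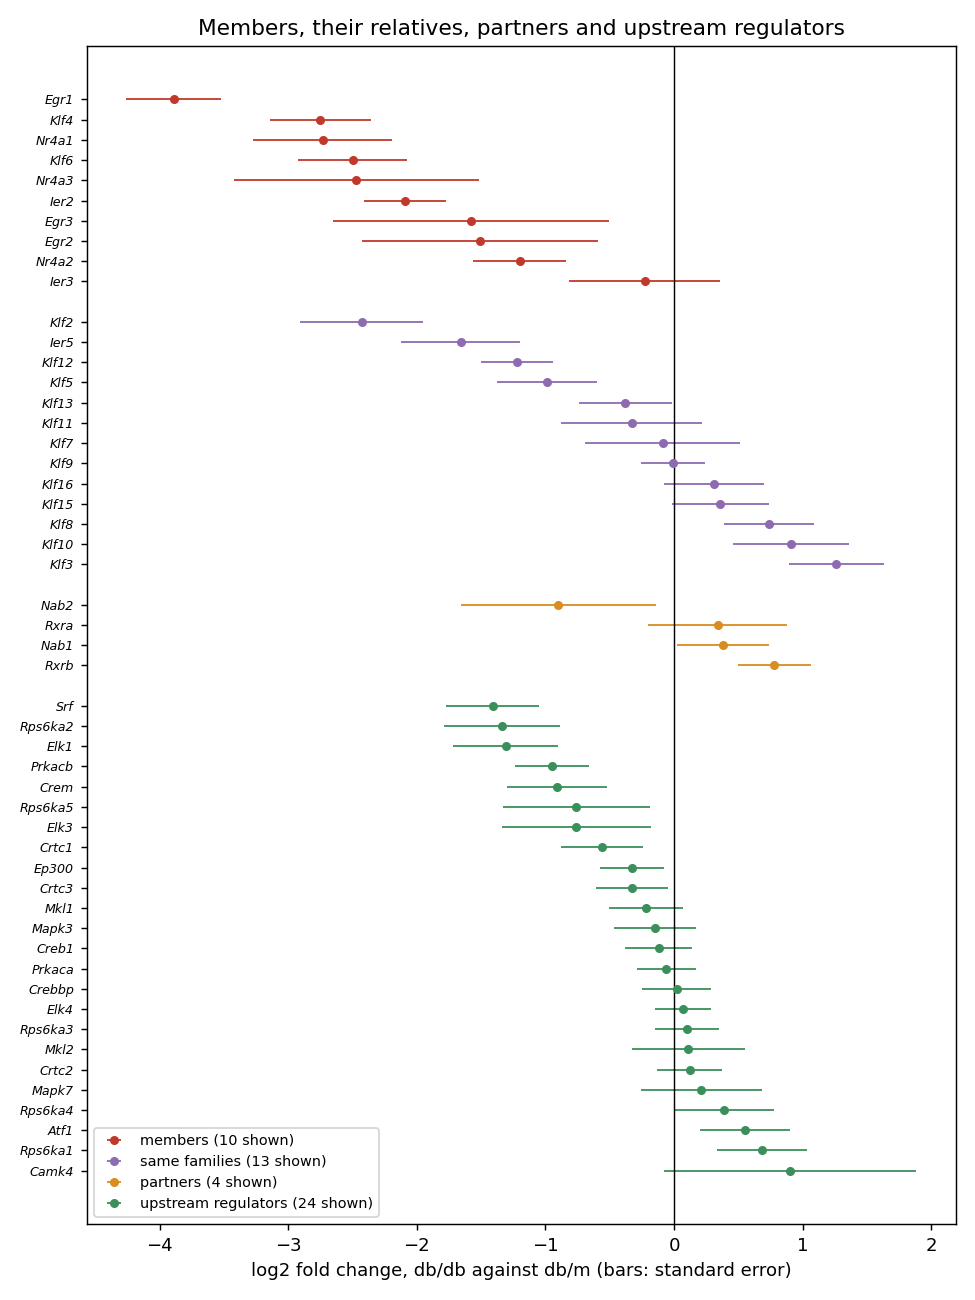
Log2 fold change (db/db over db/m) with its standard error for the 10 genes (red), other members of their families (purple), protein partners (orange) and upstream regulators (green). The 10 genes run from -3.89 to -0.23, and the relatives and regulators lie on both sides of 0.

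Other stimulus-induced genes are given side by side. These lists too were chosen with earlier results of these data known, so their counts are a description. Of all tested genes edgeR called 0.486% lower and DESeq2 called 4.1% lower. At an unadjusted p under 0.05 from edgeR, 9.89% were lower. Of the 7 tested genes of the AP-1 and Atf3 list 6 were called lower (median log2 fold change -3.72), with -4.46 (standard error 0.37, adjusted p = 0.00204 from edgeR) for Fos and -3.72 (standard error 0.39, adjusted p = 0.00608 from edgeR) for Jun. Over the 15 alternatives Jun was not called in 2, without db/db replicate 2 (adjusted p = 0.0618 from edgeR) and with the β-cell score as a covariate (adjusted p = 0.106 from edgeR). Of 16 tested feedback regulators 14 had a value below 0 (median -1.09) and 1 was called lower, Dusp1, a MAP kinase phosphatase gene that is named for this count. At an unadjusted p under 0.05, 10 of them were lower, and DESeq2 called 4 and the fit without the filter on low counts 8. The most abundant of them, the antiproliferative gene Btg2 and the clock gene Per1, had -2.10 (standard error 0.44) and -1.07 (standard error 0.33), with adjusted p of 0.0743 and 0.178 from edgeR. The difference between these lists and the 10 genes was not tested.

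Heat shock genes, which also respond to handling, did not pass the test. Of 11 tested, 10 had a log2 fold change below 0 (median -0.89) and 0 were called by edgeR. At an unadjusted p under 0.05 from edgeR 6 were lower, against 9.89% of all tested genes. DESeq2 called 3 lower, against 4.1% of all tested genes. Their summed share of counts was 0.0284% to 0.08% in db/db and 0.118% to 0.215% in db/m libraries, without overlap. Their score, the mean log2(CPM + 1), was 6.19, 4.20 and 5.15 in db/db and 6.19, 6.82 and 6.26 in db/m libraries and overlapped (two-sided exact permutation test, p = 0.2). The chaperone gene Hspa1a had 38.7, 9.81 and 31.3 CPM in db/db and 156, 158 and 75.3 CPM in db/m libraries. Its near copy Hspa1b, which can share reads with it, had 134, 11.2 and 51.6 CPM in db/db and 228, 264 and 148 CPM in db/m libraries. The constitutive chaperone gene Hspa8, named after its values were seen, had 586, 65.5 and 310 CPM in db/db and 159, 368 and 283 CPM in db/m libraries, so its groups overlapped. The part of the heat shock response in the levels of the 10 genes was not tested.

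β-cell markers moved with the 10 genes as well. All 10 markers had a log2 fold change below 0 (median -2.83), and edgeR called 4 lower, against 0.486% of all tested genes. Their score, the mean log2(CPM + 1), was 4.87 ± 0.62 (SD, n = 3) in db/db and 7.38 ± 0.96 (SD, n = 3) in db/m libraries. This mean over markers differed by -2.51, and the median difference of the 10 genes on the same scale was -1.71. The added 1 CPM draws genes at low counts toward 0, as for Egr2 (-0.96, against -1.51 in the fit). In the fit the medians were -2.83 for the markers and -2.28 for the 10 genes. When the β-cell score of each library was subtracted from each gene, no gene lay lower in every db/db library, and 2 of 10 had a lower mean, Egr1 (-1.28) and, with a difference that rounds to 0.00, Nr4a1. Egr3 and Ier3 then lay higher in every db/db library. At low counts, as for Egr2, Egr3, Nr4a3 and Ier3, the added 1 CPM sets much of the value. Subtracting a score that is lower in db/db raises every gene there, and the share of all tested genes was not taken.

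Within the db/m group the β-cell score was highest in replicate 1 (8.49, against 6.83 and 6.82). In that library Egr1, Nr4a2, Klf6 and Ier2 were the lowest of the db/m values and Klf4 was below its group mean, Egr2 and Egr3 were the highest, and Nr4a1, Nr4a3 and Ier3 were above their group means. This order rests on 3 libraries and depends on the TMM factors, of which that of db/m replicate 1 was the largest (1.75). It is given as a description only. With the β-cell score as a covariate in the fit, the log2 fold changes of Egr1 (-3.99), Klf6 (-4.19), Klf4 (-3.52), Nr4a2 (-2.65) and Ier2 (-2.64) were further from 0 than without it. Those of Nr4a1 (-1.53), Nr4a3 (-1.48) and Egr2 (-1.35) were nearer to 0, and those of Egr3 (1.46) and Ier3 (0.51) lay above 0. Only Klf6 was then called. The β-cell score did not overlap between the groups (4.16 to 5.31 in db/db and 6.82 to 8.49 in db/m libraries). With 6 libraries this fit can therefore hardly separate group from score, and its values are unstable. That of the stromal gene Col1a1, for example, went from 2.09 to 8.66. The part of the β-cell share in the levels of the 10 genes was not tested beyond these values.

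Relative to the scores of the other cell types, the 10 genes stayed mostly lower in db/db islets. With the acinar or the duct score subtracted, the same 7 genes lay lower in every db/db library, with median differences of -2.41 and -2.07. With the score of other endocrine markers, such as Gcg and Sst, 3 genes did so (Egr1, Nr4a1 and Klf4), and with the endothelial score 4 (Egr1, Nr4a1, Klf4 and Ier2). With the stromal and leukocyte scores the numbers were 9 and 8. Subtracting a score that is higher in db/db, such as the stromal score, lowers every gene there. The share of all tested genes under each subtraction was not taken, so nothing is read from these counts. Egr1, Nr4a1 and Klf4 were the genes that lay lower in every db/db library under each of these 6 scores. The score of other endocrine markers was 3.55 ± 0.39 (SD, n = 3) in db/db and 3.71 ± 0.91 (SD, n = 3) in db/m libraries (two-sided exact permutation test, p = 1.0). That of stromal markers was 2.87 ± 0.39 (SD, n = 3) and 1.54 ± 1.12 (SD, n = 3), with Col1a1 at 3 counts in each of db/m replicates 2 and 3. The duct, endothelial and leukocyte scores differed by 0.36, -0.33 and 0.64 (exact permutation p = 0.3, 0.4 and 0.5), and all 3 overlapped between the groups.

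**Figure D5:**
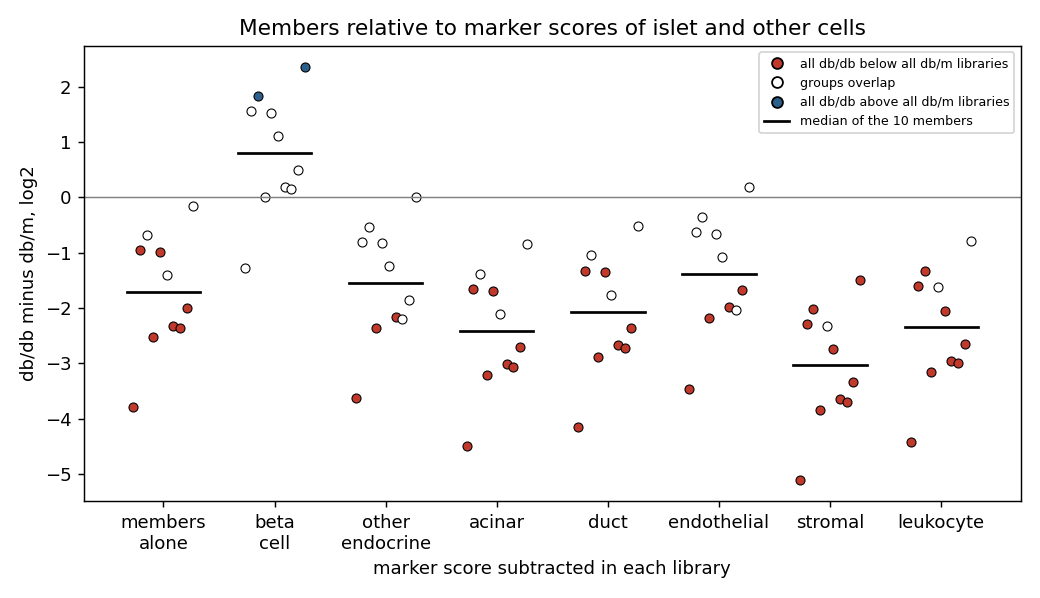
Difference in log2(CPM + 1), db/db minus db/m, for each of the 10 genes, alone and after the marker score of a cell type was subtracted in each library; red points have every db/db library below every db/m library and blue points the opposite. The median is -1.71 for the genes alone and 0.80 relative to β-cell markers. For genes at low counts the added 1 CPM sets much of the value.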

How the data were processed

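Islet RNA of 3 db/db and 3 db/m mice was sequenced by the authors after rRNA depletion. The authors removed adaptor and low-quality reads, mapped the rest to mm10 (the paper names TopHat, the submitters' processing notes HISAT2 2.0.4) and deposited raw counts per gene symbol, unnormalized; the counting program, annotation and use of strand are not given in the sources used here. All 6 columns were matched to samples by title.

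In edgeR 4.0.16 (R 4.3.3), genes were filtered with filterByExpr, scaled by TMM and compared by the quasi-likelihood F-test; p-values were adjusted by Benjamini-Hochberg across 12760 genes (threshold 0.05), and the script was tested on simulated data. A standard error is the size of the log2 fold change over the root of its F value. Scores are means of log2(CPM + 1). Exon lengths and positions came from GENCODE M21 and promoters from RefSeq, both GRCm38.

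The 10 genes and all lists were chosen with earlier results of these data known. Besides the 10, the genes named were any of the family, partner and upstream lists with an adjusted p under 0.05, the 2 most abundant of each of those lists and of the AP-1 and feedback lists, the 5 nearest in profile and the first 2 of each marker list and of the heat shock list. Exceptions are stated in the text. Marker lists are given mainly by their scores and shares, and not every gene of the rule is given with values. Of the listed genes 1 is not reported here, nor drawn in the plot of fold changes. Same-numbered mice were not treated as pairs. Alternatives were DESeq2 1.42.0, other scalings and filters, the replicate block, marker scores as covariates and leaving out each mouse; scores subtracted from each gene were chosen after seeing the data.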

Additional observations from a re-analysis of the deposited data

How the results depend on the processing

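Against 79 genes called over all genes (17 higher, 62 lower), 679 were called by DESeq2, 888 without the filter on low counts, 52 with upper-quartile factors, 21 with library size alone (6 higher, 15 lower) and 15 with the β-cell score as a covariate (10 higher, 5 lower). Of the 10 genes, against 4, these settings called 5, 7, 4, 3 and 1. Of the related genes, against 0, DESeq2 called 4 and the fit without the filter 5. Library-size scaling moved the median log2 fold change of the 10 genes from -2.28 to -2.79, and that of all genes to -0.59. Leaving out each mouse gave 10 to 333 genes called (10 without db/db replicate 2, 333 without db/m replicate 3), 0 to 5 of the 10 genes and 0 to 2 of the related genes. The number of the 10 genes with every db/db library below every db/m library was 7 without any other mouse, but 10 without db/db replicate 3 and 8 without db/m replicate 3. Groups separate more easily when a library is left out. The share of all tested genes was not taken for these sets, so nothing is read from these numbers. With the replicate block, 16 genes were called (4 higher, 12 lower), of the 10 genes 1 (Egr1). The labels link same-numbered mice only by their number. Over the tested genes their deviations from the group means correlated at -0.514, -0.153 and -0.316, which does not settle whether they were handled together. The causes of these changes were not tested.

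Over 15 alternatives 8 of the 10 genes kept a log2 fold change below 0 throughout. Egr3 was at 1.46 with the β-cell covariate, and Ier3 was below 0 in 11. With 3 libraries a group and counts under 30 in every db/db library, Egr2, Egr3, Nr4a3 and Ier3 are measured with little precision.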
